A study of Rattus norvegicus with 12 samples.

Results

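The comparison described here is that of levo-tetrahydropalmatine-treated with untreated rats after sciatic nerve ligation. It uses 8 of the 12 RNA-seq libraries of the series, chosen by their titles: 4 of group CCI and 4 of group CCI+THP. All rats were labelled wild type (WT), and lumbar cord (L4 to L6) was taken on postoperative day 10. CCI rats had the sciatic nerve ligated. CCI+THP rats had the same ligation and received THP, which by the series title is levo-tetrahydropalmatine. Neither dose, route, schedule, strain, sex nor age is given in the sources used here, nor whether CCI rats received a vehicle, so the drug and its vehicle cannot be told apart. The 4 Sham rats, whose nerve was exposed and left unligated, entered the fit for its estimate of spread and are given as a reference level. No group of unligated rats with the drug was analysed here.

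Chronic constriction injury of the sciatic nerve is a rat model of neuropathic pain. In the lumbar dorsal horn, where the injured fibres end, microglia and astrocytes take on reactive states and release inflammatory mediators that raise neuronal excitability. Levo-tetrahydropalmatine is an alkaloid of Corydalis with analgesic and sedative action, best known as a dopamine receptor antagonist. The series title attributes its effect on pain to suppression of an axis from Clec7a (Dectin-1, a receptor for fungal glucans on myeloid cells) through MAPK and NF-κB signalling to the NLRP3 inflammasome, which activates caspase-1 and interleukin-1β. In transcript levels, the question is whether differences made by the ligation were turned back by the drug.

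The deposited counts are listed per Ensembl transcript, and 0 of the 41078 identifiers could be paired with a gene symbol here. The genes of the axis, glial markers, and markers of blood, muscle or nerve root could for this reason not be read, and the labelled tissue could not be checked against its markers. Results are given for transcripts by abundance, and the 3 that passed are given by identifier. In whole tissue, fewer cells of a type and less RNA per cell cannot be told apart.

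The depth and content of the 8 libraries were compared first. In units of 1e6 estimated counts, library totals lay between 82.9 and 95.3 in CCI and between 85.7 and 110.8 in CCI+THP. The 4 measures compared were the total, the number of transcripts detected, the share of the 10 most abundant transcripts and the distance to the other libraries of the group. Permutation tests over 70 assignments (two-sided, n = 4 each) gave p from 0.0571 to 0.229, adjusted 0.229 for each. The smallest p possible is 0.0286, so a difference in a single measure could not have passed after adjustment. The distance to the group, a root mean square over log2 CPM values (CPM is the count relative to the library total, TMM-scaled), had a mean of 0.972 ± 0.0266 (SD, n = 4) among untreated rats and of 0.921 ± 0.0281 (SD, n = 4) among treated ones. It had the smallest p of the 4, with ranges of 0.937 to 1.001 and 0.88 to 0.942 that overlapped narrowly. The distances were taken with the true labels and not computed anew for each assignment, and those of a group share libraries. The permutation p of this measure is therefore not exact.

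Treatment was accompanied by few separable differences. Of 24037 transcripts tested, 1 was higher and 2 were lower in CCI+THP than in CCI (edgeR quasi-likelihood test, Benjamini-Hochberg adjusted p under 0.05), which is 0.0125% of those tested. The higher call alone is 0.00416% and the lower calls are 0.00832%. All 3 had a mean below 10 CPM, and 2 of them were below 1 CPM. With no adjustment, 834 higher and 838 lower transcripts had a p under 0.05, which is 6.96% of those tested. The 4 values of each group did not overlap in 944 transcripts (3.93%).

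**Figure D1:**
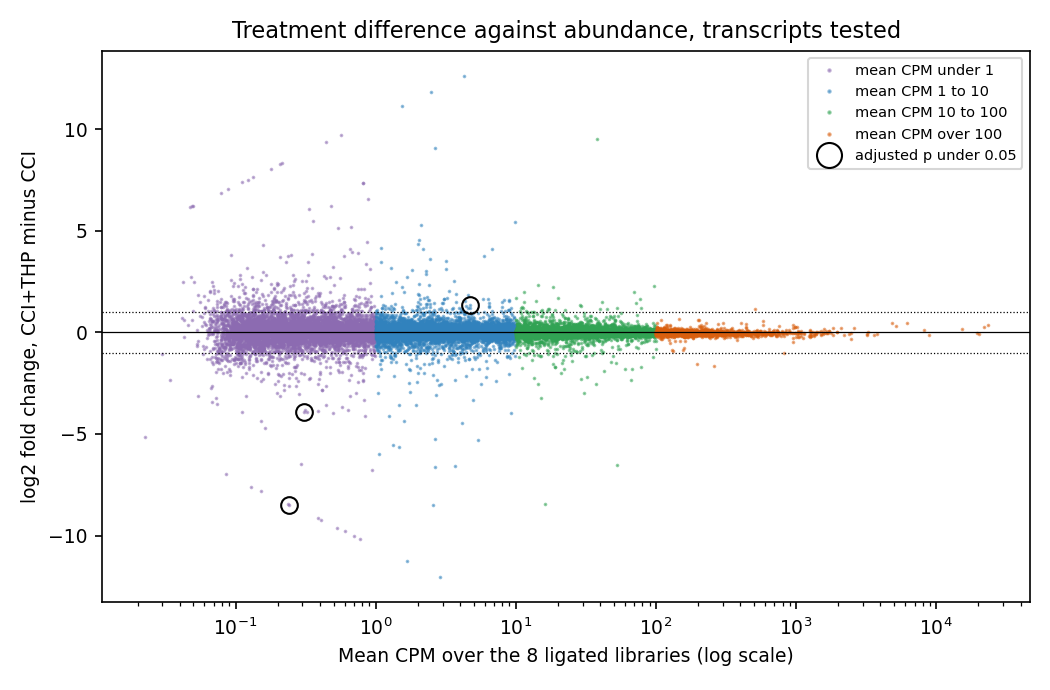
Each point is 1 of 24037 transcripts, with its mean CPM over the 8 ligated libraries on a log axis and its log2 fold change of CCI+THP over CCI; dotted lines mark 2-fold. The cloud narrows with abundance, and the 3 circled transcripts, those with an adjusted p under 0.05, lie at 0.242, 0.308 and 4.71 CPM.

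ENSRNOT00000025580.7 was the transcript that rose. Its level was 2.99, 2.95, 2.03 and 2.61 CPM in CCI replicates 1 to 4, and 5.64, 6.94, 6.69 and 7.8 CPM in CCI+THP replicates 1 to 4. Every treated library lay above every untreated one, and the lowest treated library was still well above the highest untreated one. The fitted rise was 2.56-fold, with a 95% interval of 2.03 to 3.22 (log2 fold change 1.35 ± 0.15, SE; edgeR adjusted p = 0.0163). The Sham libraries held 1.96, 2.01, 1.65 and 1.75 CPM, all just below the lowest CCI library. The treated level thus lay on the far side of CCI from Sham.

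ENSRNOT00000061402.5 fell to near 0. CCI libraries held 0.639, 0.496, 0.549 and 0.633 CPM, from 42 to 60 counts each, and Sham libraries 0.85, 0.502, 0.718 and 0.742 CPM. CCI+THP libraries held 4, 1, 5 and 4 counts. Treated and untreated values did not overlap, and Sham overlapped with CCI. The fitted log2 fold change was -3.92 ± 0.42 (SE; edgeR adjusted p = 0.0163). All treated libraries were below a floor of 12 counts per library (0.125 CPM on average), so the CCI mean can be placed only at 4.64-fold above that floor.

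ENSRNOT00000015692.2 was listed at 0 in all 4 CCI+THP libraries. CCI replicates 1 to 3 held 0.342, 0.401 and 0.351 CPM and replicate 4 held 0.844 CPM; Sham libraries held 0.702, 0.758, 0.533 and 0.403 CPM. The transcript was present in every Sham and CCI library at 30 to 80 counts, and in none of the treated ones. Its CCI mean of 0.485 ± 0.241 CPM (SD, n = 4) was at least 3.88-fold higher than the treated floor (edgeR adjusted p = 0.0163). None of the 3 had passed in CCI against Sham (edgeR adjusted p 0.913 for ENSRNOT00000015692.2, 0.91 for ENSRNOT00000061402.5 and 0.227 for ENSRNOT00000025580.7).

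**Figure D2:**
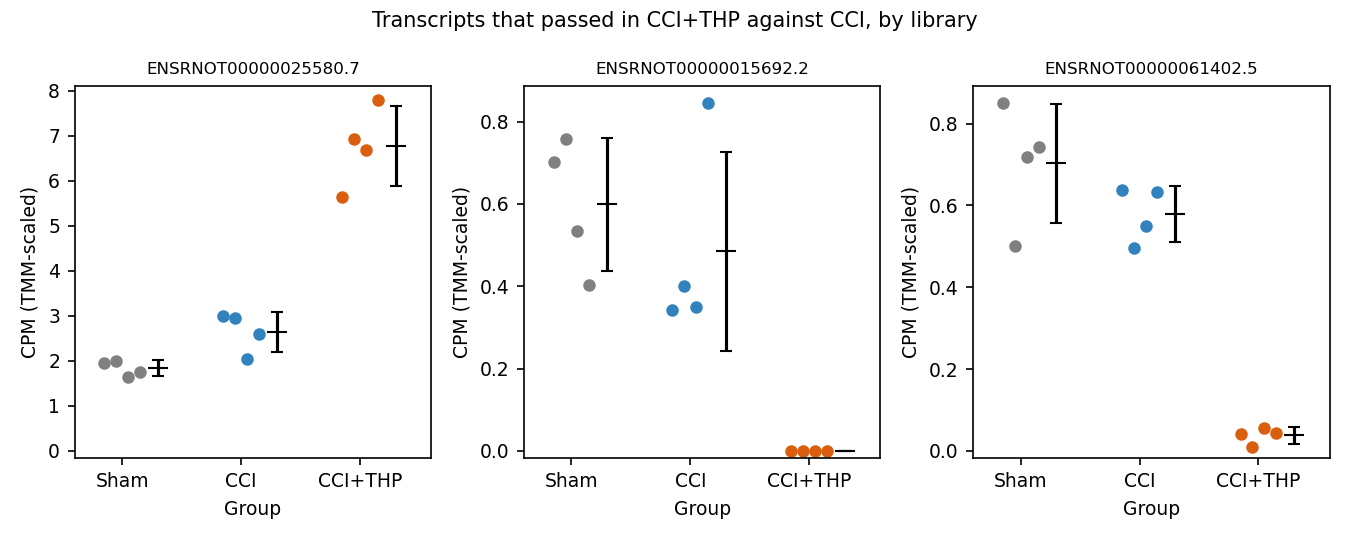
CPM of the 3 transcripts that passed, with 1 point per library in the order of replicates 1 to 4, and the mean ± SD (n = 4) beside each group; each panel has its own linear axis. The treated libraries stand clear of CCI in each panel, at 5.64 to 7.8 CPM in the left one and at or near 0 in the others, whereas Sham lies nearer to CCI than CCI+THP does.

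These 3 calls depended on single libraries and on the way the spread was estimated. No call was left when Sham replicate 1, Sham replicate 3 or CCI replicate 1 was removed, and 1 was left without CCI replicate 4 or CCI+THP replicate 4; 5 were made without Sham replicate 2 and 7 without CCI+THP replicate 1. ENSRNOT00000025580.7 also lost its call without CCI+THP replicate 2 or 3 (edgeR adjusted p 0.0502 and 0.0843). With only the 8 ligated libraries in the fit there were 2 calls, 1 higher and 1 lower, and both were of other transcripts than the 3 (edgeR adjusted p 0.146, 0.146 and 0.252 for these). By DESeq2 there were 83 higher and 79 lower calls (0.674% of those tested); limma voom, run with quality weights, made 1, that of ENSRNOT00000025580.7 (adjusted p = 0.0199).

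Beyond the 3, a further 4 transcripts had an adjusted p under 0.1 (edgeR), and their groups did not overlap either. The first lay between 16.5 and 18.6 CPM in CCI and between 11.3 and 13.6 CPM in CCI+THP. The second was at 0 to 0.0236 CPM in CCI and at 0.326 to 13.7 CPM in CCI+THP, so its treated libraries differed widely among themselves. The third lay between 12.2 and 20.6 CPM in CCI and between 32.6 and 50.3 CPM in CCI+THP, beside a Sham mean of 18.2 CPM. All of these had an edgeR adjusted p of 0.0587. The last, at 0.0702, lay between 46.3 and 49.6 CPM in CCI and between 39 and 41.3 CPM in CCI+THP, beside a Sham mean of 41.1 CPM. It is the only 1 of these 4 that was also among the transcripts higher in CCI than in Sham. The mean levels of the first (17.6 CPM in CCI, 12.5 CPM in CCI+THP, 17.5 CPM in Sham) and of the third (16.7 CPM in CCI, 41.2 CPM in CCI+THP) lay farther from Sham with treatment than without. Those of the second (0.00882 CPM in CCI, 5.32 CPM in CCI+THP, 3.63 CPM in Sham) and of the last (47.5 CPM in CCI, 39.9 CPM in CCI+THP) lay nearer to Sham with treatment. The second was among the transcripts lower in CCI than in Sham. None of the 4 passed.

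What 4 rats against 4 could exclude differed between abundance classes. For each transcript a 95% interval of the log2 fold change was taken from the edgeR fit, and an effect of a given fold was called excluded where the whole interval lay inside that fold in both directions. Over all transcripts, an effect of 2-fold was excluded for 16860 of 24037 (70.1%), and 1.5-fold for 13256 (55.1%). The spread in these intervals came from all 12 libraries, Sham included. From the least to the most abundant class, the median distance from estimate to interval end was 1.13, 0.43, 0.167 and 0.112 (log2). With only the 8 ligated libraries in the fit it was 1.15, 0.444, 0.176 and 0.119. In that fit, 1.5-fold was excluded below 1 CPM for 76 transcripts in place of 112. Each interval holds for its own transcript and is not adjusted over the many transcripts, and a narrow interval around a small difference does not show that the difference is 0.

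Transcripts over 100 CPM were the best measured. This class had 1924 transcripts, 8% of those tested, and held 64.7% of the counts. Between rats of the same group the median SD of log2 CPM was 0.074. The margin of the interval (from the estimate to either end) had a median of 0.11 on the log2 scale, or 1.08-fold. An effect of 1.2-fold was excluded for 78% of the class, 1.5-fold for 95.6% and 2-fold for 98.3%. For 9 in 10 of these transcripts any effect beyond 1.29-fold was excluded (the 90th percentile of the farther interval end). No transcript of the class passed (edgeR, smallest adjusted p = 0.168). An unadjusted p under 0.05 was found for 249, which is 12.9% beside 6.96% of all transcripts. DESeq2 made 3 higher and 18 lower calls among the 1924, beside 0.345% and 0.329% of all transcripts. limma voom made 0, with 202 at that unadjusted p, beside 6.71% of all transcripts.

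The 10 most abundant transcripts, from 4823 to 23260 CPM, were less tightly bounded than the rest of this class. Their log2 fold changes ran from -0.15 to 0.47. An effect of 1.5-fold was excluded for 5 of them and 2-fold for 8. The most abundant was at 20416 CPM in CCI and 26104 CPM in CCI+THP (log2 fold change 0.35, 95% interval 0.07 to 0.64; edgeR adjusted p = 0.65). The groups did not overlap in 2 of the 10, both higher with treatment, beside 5.67% of the class and 3.93% of all transcripts. None of the 10 passed (lowest edgeR adjusted p 0.65).

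Over the whole class of abundant transcripts the small differences were mostly downward. Of those with an unadjusted p under 0.05, 178 lay lower and 71 lay higher, by a median of 1.10-fold and 1.11-fold. These are 9.25% and 3.69% of the class, beside 3.49% and 3.47% of all transcripts. The median log2 fold change of the class was -0.03 (quartiles -0.08 and 0.02). More were lower than higher under each alternative run, scalings included. The lower count was 113, 273, 97 and 111 without CCI replicates 1, 2, 3 and CCI+THP replicate 4, and the higher count was 44 or 43 without CCI+THP replicate 1 or 4. The class held between 64.1 and 65% of each library in both groups. Below 10 CPM the lean at that p was upward. From 1 to 10 CPM, 239 lay higher (3.45%) and 175 lower (2.53%), and below 1 CPM 158 lay higher (2.57%) and 102 lower (1.66%). The median log2 fold changes of these classes were 0.03 and 0.05.

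From 10 to 100 CPM there were 9042 transcripts, 37.6% of those tested, with 32.1% of the counts. The median SD between rats of a group was 0.11 on the log2 scale and the median margin 0.17, or 1.12-fold. An effect of 1.2-fold was excluded for 57.1%, 1.5-fold for 88.1% and 2-fold for 94%. For 9 in 10, any effect beyond 1.59-fold was excluded. No transcript passed by edgeR (smallest adjusted p = 0.0587). At an unadjusted p under 0.05, 366 lay higher (4.05%, beside 3.47% of all transcripts) and 383 lower (4.24%, beside 3.49%). DESeq2 made 40 higher and 27 lower calls among the 9042, beside 0.345% and 0.329% of all transcripts. limma voom made 0, with 685 at that unadjusted p, beside 6.71% of all transcripts. The median log2 fold change was 0 to 2 decimals, with 90% of transcripts between -0.21 and 0.25.

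From 1 to 10 CPM the 6927 transcripts, 28.8% of those tested, held only 3.04% of the counts. The median SD between rats of a group was 0.26 and the median margin 0.43, or 1.35-fold. An effect of 1.5-fold was excluded for 48.2% and 2-fold for 74.8%, whereas 1.2-fold was excluded for only 4.99%. Any effect beyond 4.82-fold was excluded for 9 in 10, many of which had a nearer bound. ENSRNOT00000025580.7 was the sole call in this class. DESeq2 made 28 higher and 18 lower calls among the 6927, beside 0.345% and 0.329% of all transcripts.

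Below 1 CPM little could be excluded. The 6144 transcripts of this class, 25.6% of those tested, held 0.227% of the counts. The median SD between rats of a group was 0.66 and the median margin 1.13 on the log2 scale, or 2.18-fold. An effect of 1.5-fold was excluded for 112 transcripts (1.82%), 2-fold for 1286 (20.9%) and 4-fold for 4004 (65.2%). Any effect beyond 12.3-fold was excluded for 9 in 10, many of which had a nearer bound. In this class 702 transcripts had a fitted change of at least 2-fold, 11.4%, against 81 (0.896%) from 10 to 100 CPM and 4 (0.208%) over 100 CPM. The 112 fell to between 56 and 71 without any 1 of the CCI or CCI+THP libraries. ENSRNOT00000061402.5 and ENSRNOT00000015692.2 were the only calls by edgeR. DESeq2 made 12 higher and 16 lower calls among the 6144, beside 0.345% and 0.329% of all transcripts. limma voom made 0, with 293 at an unadjusted p under 0.05, beside 6.71% of all transcripts.

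**Figure D3:**
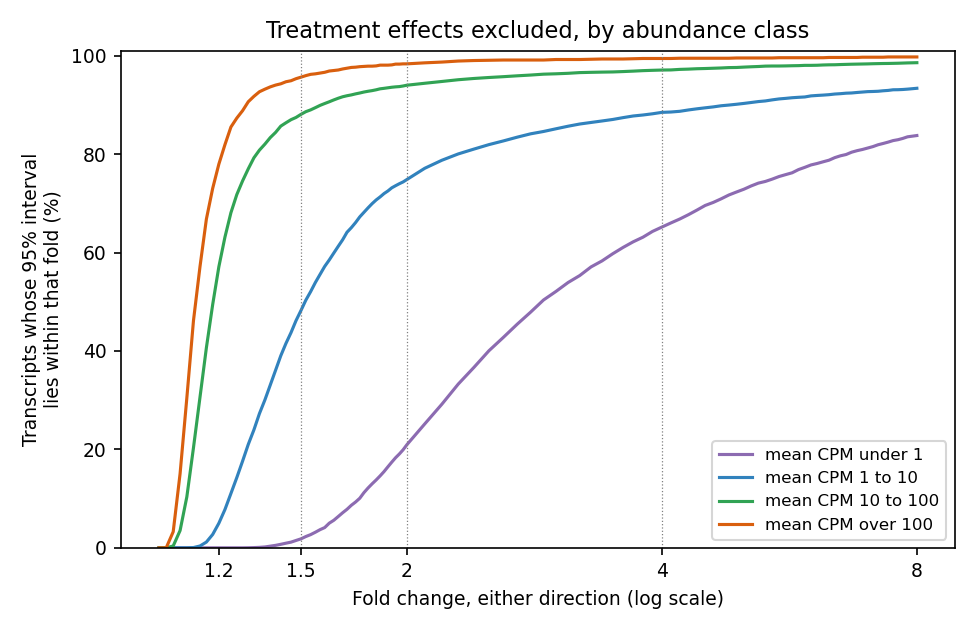
For each abundance class, the curve gives the percentage of transcripts whose 95% interval of the treatment difference lies within the fold on the horizontal log axis, in either direction; dotted lines mark 1.5-, 2- and 4-fold. At 2-fold the curves stand at 20.9, 74.8, 94 and 98.3% from the least to the most abundant class.

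The same spread sets the difference a transcript needed in order to pass. Beside the 3 calls, 1 more transcript would have passed at a p of 8.32e-06. With the median standard error of its class, it had to differ 1.32-fold to reach that p if over 100 CPM and 1.51-fold from 10 to 100 CPM. The difference needed was 2.88-fold from 1 to 10 CPM and 16-fold below 1 CPM. Because the classes differ so much in margin, equal counts of calls in them would not stand for equal effects.

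Some transcripts were present in 1 rat and absent in another of the same group. Such a transcript was taken as having 0 counts in at least 1 library and at least 1 CPM in another library of that group, a definition made after the data were seen. There were 475 in CCI, 423 in CCI+THP and 426 in Sham, with 236 in both ligated groups. Of the 662 found in either ligated group, 361 had a mean of 1 to 10 CPM, 81 of 10 to 100 CPM and 2 of more than 100 CPM. The definition asks for a wide spread within a group, so wide margins follow from it. The median margin of the 662 was 3.5 on the log2 scale, against 0.33 for the other transcripts, and a 4-fold effect was excluded for 3 of them. They made up 360 of the 798 transcripts from 1 to 10 CPM for which 4-fold was not excluded. Whether these are isoforms that differ between rats or an effect of how reads were assigned to isoforms was not tested.

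Among abundant transcripts, 11 over 100 CPM had an interval reaching beyond 4-fold, with library values from 0 to 4514 CPM. In 5 of these at least 1 of the 8 libraries was under 10 CPM. A fitted change of 2-fold or more was found for 4 transcripts of this class, 1 higher and 3 lower with treatment. In 1 of them the groups did not overlap: CCI ran from 743 to 1260 CPM and CCI+THP from 474 to 631 CPM (log2 fold change -1.03, 95% interval -1.55 to -0.51; edgeR adjusted p = 0.434). In another, both groups ran from 0 upward, to 635 CPM in CCI and 500.4 CPM in CCI+THP, so its fitted fall of 1.67 on the log2 scale had an interval from -7.89 to 4.56.

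Transcripts that the ligation had raised were next read under treatment. In CCI against Sham 140 transcripts were higher (0.582% of those tested) and 4 lower (0.0166%; edgeR adjusted p under 0.05). Both differences use the CCI libraries, with opposite sign. By itself this favours an apparent return in transcripts chosen this way, so no test of the list as a set is given. Counts of small p on the list are descriptive only. A return was called excluded where the whole treatment interval stopped short of it. Its size was the fitted ligation difference, in full or by 0.5, taken as known, and the error of that difference was not entered. Choice by adjusted p favours ligation differences fitted too large, which by itself makes exclusion easier. The counts of excluded returns thus hold against the fitted differences only and may be too high.

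In each abundance class except the scarcest, the treated level was close to the untreated one. Over 100 CPM (9 transcripts) the median log2 fold change was 0.75 for CCI over Sham and -0.03 for CCI+THP over CCI, and a full return to Sham was excluded for 9 of 9. From 10 to 100 CPM (88 transcripts) these medians were 0.68 and 0.01, and a full return was excluded for 87. From 1 to 10 CPM (38 transcripts) they were 1.21 and 0.07, and a full return was excluded for 38. The median level in this last class was 2.44 CPM for Sham, 5.6 CPM for CCI and 6.13 CPM for CCI+THP. Below 1 CPM (5 transcripts) the medians were 2.37 and -0.38, with all 5 lower in CCI+THP than in CCI, and a full return was excluded for 4. Among these 4 is a transcript at 0 CPM in Sham, 0.423 CPM in CCI and 0.303 CPM in CCI+THP. With Sham at 0, its fitted ligation difference of 8.29 on the log2 scale is not a measured size. Its exclusion therefore does not show that a return to an undetected level was excluded.

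A return by 0.5 of the ligation difference was excluded less evenly. It was excluded for 8 of 9 transcripts over 100 CPM, 69 of 88 from 10 to 100 CPM, 35 of 38 from 1 to 10 CPM and 3 of 5 below 1 CPM. The 3 include the transcript at 0 CPM in Sham, with the same limit. The count over 100 CPM was 5 without CCI+THP replicate 2. A 2-fold treatment effect in either direction was excluded for 133 of the 140, beside 70.1% of all transcripts, and 1.5-fold for 112, beside 55.1%. The 2 sets are unlike in abundance, as 5 of the 140 but 25.6% of all transcripts lie below 1 CPM. They are also unlike in spread by the choice itself. The fit gives each transcript a single spread for both comparisons, so passing against Sham favours a narrow treatment interval. The larger shares among the 140 are thus favoured by the choice, within a class too. From 10 to 100 CPM, 2-fold was excluded for 88 of 88, beside 94% of the class, and 1.5-fold for 82, beside 88.1%. From 1 to 10 CPM, 2-fold was excluded for 34 of 38, beside 74.8%, and 1.5-fold for 22, beside 48.2%.

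Over the 140, none passed in CCI+THP against CCI (edgeR, smallest adjusted p = 0.0702; background 0.0125%). With no adjustment, 6 lower and 3 higher ones had a p under 0.05, which is 6.43% of the 140 beside 6.96% of all transcripts. DESeq2 called 2 of the 140 lower, beside 0.329% of all transcripts, and 0 higher, with 13 at an unadjusted p under 0.05, beside 9.47%. limma voom called 0, with 14 of the 140 at an unadjusted p under 0.05, beside 6.71% of all transcripts. Their median log2 fold change was 0.01, beside 0 to 2 decimals over all transcripts.

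The intervals of 2 of the 140 reached as far as a full return. In the first, the Sham mean was 41.1 CPM, the CCI mean 47.5 CPM and the CCI+THP mean 39.9 CPM, with a 95% interval for treatment of -0.33 to -0.17 on the log2 scale against a ligation difference of 0.21. This is the transcript with an adjusted p of 0.0702. The other was listed at 0 in all Sham and all CCI+THP libraries and averaged 1.2 CPM in CCI (edgeR adjusted p = 0.224 for treatment).

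The 4 transcripts lower in CCI than in Sham all had a higher fitted level with treatment, and none passed (edgeR, smallest adjusted p = 0.0587; 3 at an unadjusted p under 0.05, beside 6.96% of all transcripts). DESeq2 called 1 of the 4 higher, beside 0.345% of all transcripts, and limma voom called 0, with 0 at an unadjusted p under 0.05. Choice for low values in the same CCI libraries by itself favours higher values with treatment, and more small p among them. A full return was excluded for 3 of the 4. In one of these, at 47.5 CPM in Sham, the level was 2.86 CPM in CCI and 3.14 CPM in CCI+THP, with a treatment interval of -0.25 to 0.53 on the log2 scale. The exception was the transcript described above as rising from at most 0.0236 CPM in CCI, with a Sham mean of 3.63 CPM.

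**Figure D4:**
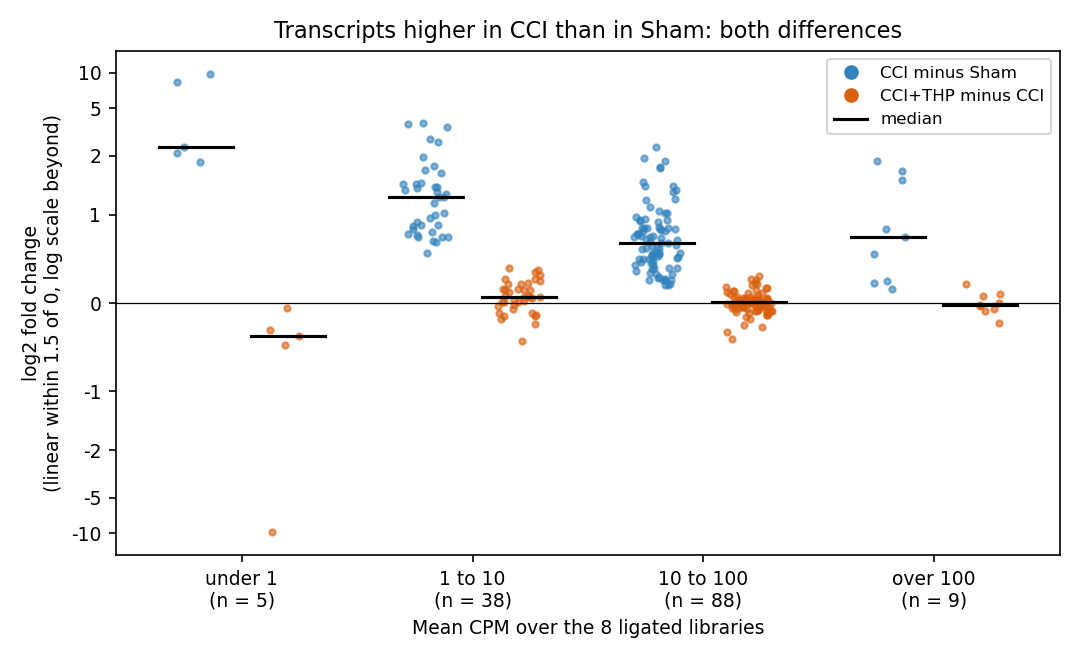
For the 140 transcripts higher in CCI than in Sham, by abundance class, points give the log2 fold change of CCI over Sham (blue) and of CCI+THP over CCI (orange), and bars the medians; the vertical axis is linear within 1.5 of 0 and logarithmic beyond. Blue points lie above 0 by the choice of the transcripts, and orange medians lie at -0.38, 0.07, 0.01 and -0.03 from the least to the most abundant class.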

How the data were processed

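The members and lists were chosen with earlier results of these data known. The deposited files hold estimated counts, whole numbers per Ensembl transcript (41078 rows), unscaled by the authors; the submitters' processing notes name build rn4, and no source used here names the aligner, counting tool or annotation. Among counts of 8 to 40, multiples of 4 were 1.24 times as frequent as their neighbours (range over libraries 1.18 to 1.32), so no counting intervals were computed, and the floor was set at 12 counts per library, 3 fragments if a fragment is worth 4 counts.

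Titles gave groups and replicate numbers; the design text gives 4 rats per group. filterByExpr (minimum count 10, total 15) kept 24037 transcripts. The 17041 left out held 0.0591% of counts, 54 of them with a mean of 1 CPM or more. Of the 54, 4 had a mean of 10 to 100 CPM and 1 of 232 CPM. None of the 54 had 10 counts or more in over 3 of the 12 libraries. The shares excluded by class do not include them. Counts were TMM-scaled (factors 0.975 to 1.02) and fitted with edgeR 4.0.16 (R 4.3.3) over all 12 libraries with group as factor. The standard error is the absolute log2 fold change over the square root of F, and intervals are 95% t intervals. log2 CPM has a prior count of 2. Classes use the mean CPM of the 8 ligated libraries. Identifiers named are up to 2 per direction among transcripts with an adjusted p under 0.05 and groups that do not overlap. DESeq2 1.42.0 left 591 adjusted p-values as NA; limma was 3.58.1. Gene lists prepared for named genes were not used.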

Additional observations from a re-analysis of the deposited data

Results flagged for a closer look

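In CCI replicate 4 the level of ENSRNOT00000015692.2 was 0.844 CPM, far above the other CCI libraries, which lay between 0.342 and 0.401 CPM. It was the only 1 of 21 groups of 4 values examined in which a single library stood this far from the others by Dixon's ratio, and chance flags about 1 in 20. Without that library the adjusted p of this transcript was 0.0314 (edgeR).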

How the results depend on the processing

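The count of 3 calls became 162 with DESeq2, 1 with limma voom, 1 with a filter at a mean of 1 CPM, 0 with a replicate block, and 0 to 7 when each of the 12 libraries was left out in turn. Samples of the same number in CCI and CCI+THP did not deviate together (correlations -0.03 to 0.01 across transcripts, 0 of 4 highest with their own number), so the numbers pair nothing by this check. ENSRNOT00000025580.7 lost its call with a replicate block (edgeR adjusted p = 0.108), ENSRNOT00000061402.5 (0.0597) and ENSRNOT00000015692.2 (0.273) likewise, and the last also with counts divided by 4 (0.0624). Their log2 fold changes kept their sign in every setting that tested them.

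Below 1 CPM, the 112 transcripts with 1.5-fold excluded became 763 with no filter, which tests more transcripts. That run includes transcripts at 0 in all 8 ligated libraries. By the formula used for the standard error, their intervals have almost no width and count as excluded. How many of the 763 these are was not counted. The 112 became 5 with the filter at 1 CPM, which tests fewer transcripts. They became 73 with a replicate block, 5 with 99% intervals, and 56 to 108 with a library left out. The 1286 with 2-fold excluded became 31 with that filter and 421 with 99% intervals, and the median margin 2.25 with no filter. From 1 to 10 CPM, the 3340 with 1.5-fold excluded became 2137 with 99% intervals. The other counts by class of intervals within 1.5- or 2-fold stayed within 1.5 times in each setting, as did the 138 (133 to 138) and 115 (81 to 121) of the 140 transcripts for which a return in full or by 0.5 was excluded. By class, the return by 0.5 was excluded over 100 CPM for 4 in place of 8 with 99% intervals and for 5 without CCI+THP replicate 2, and below 1 CPM for 1 in place of 3 with 99% intervals and 0 with the filter at 1 CPM. The causes of these shifts were otherwise not tested.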
